A study of Homo sapiens with 24 samples.

Results

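Homologous recombination genes and Fanconi anaemia genes were followed in 4 human cancer cell lines given EPZ015666, which blocks PRMT5, an enzyme that methylates arginines in proteins, or its vehicle DMSO. The group was a list of 33 genes drawn up by function, and 30 of them are rows of the deposited table of 16591 genes. RAD50, RAD51D and RAD54B were not analysed here. The drug was given to BT549 and MDAMB436, which are breast cancer lines, and OVCAR8 and COV362, which are ovarian cancer lines, at 5 µM for 5 days. BT549 and OVCAR8 also had EPZ015666 groups at 3 days. Each of these 6 groups had DMSO libraries of its own line and day to set it against. Each of the 12 groups held 2 libraries of stranded poly(A) RNA, named A and B, and each line stands for itself, since a line is a single established culture and not a set of tumours. Nothing in the labels tells if A and B are separate cultures or repeats of one, so p-values here rest on the spread of the 2 libraries of a group, which could be technical only.

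Homologous recombination mends a broken chromosome by copying the intact sister. The break is first cut back to single strands (MRE11, NBN, RBBP8, EXO1, BLM), BRCA1 and its partners then bring BRCA2 to the site, and strand exchange genes such as RAD51C, XRCC2, RAD52 and RAD54L help the strand invade its template. The Fanconi anaemia pathway unhooks crosslinks between the strands of DNA: a core complex with the ligase FANCL and the enzyme UBE2T attaches ubiquitin to FANCD2 and FANCI, which brings nucleases such as SLX4 and ERCC4. Many of these genes are transcribed more in dividing cells, and their loss makes breast and ovarian tumours sensitive to crosslinking drugs and to PARP inhibitors.

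The promoters of 4 members are shown as examples, 2 of those that rose and 2 of those that fell with EPZ015666 in OVCAR8 at day 5. Each window runs from 250 bases before to 50 bases after the annotated RefSeq start, on GRCh38.p14, written 5′ to 3′ along the gene's own strand. They lie at chr1:241847954-241848253 (plus strand, EXO1), chr3:10026187-10026486 (plus strand, FANCD2), chr9:35079893-35080192 (minus strand, FANCG) and chr16:89816598-89816897 (minus strand, FANCA). Capitals mark matches, on either strand, to the 5 motifs searched, which were 2 forms of the E2F site (TTTCGCGC and TTTCCCGC), the ETS site (CCGGAAGT), the CCAAT box (CCAAT) and the GC box (GGGCGG).
EXO1: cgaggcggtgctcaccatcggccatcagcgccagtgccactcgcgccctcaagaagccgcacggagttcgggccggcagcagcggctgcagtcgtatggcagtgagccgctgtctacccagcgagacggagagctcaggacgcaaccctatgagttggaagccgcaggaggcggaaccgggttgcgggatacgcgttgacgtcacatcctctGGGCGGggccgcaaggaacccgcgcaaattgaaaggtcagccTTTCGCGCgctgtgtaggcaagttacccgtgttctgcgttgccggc
FANCD2: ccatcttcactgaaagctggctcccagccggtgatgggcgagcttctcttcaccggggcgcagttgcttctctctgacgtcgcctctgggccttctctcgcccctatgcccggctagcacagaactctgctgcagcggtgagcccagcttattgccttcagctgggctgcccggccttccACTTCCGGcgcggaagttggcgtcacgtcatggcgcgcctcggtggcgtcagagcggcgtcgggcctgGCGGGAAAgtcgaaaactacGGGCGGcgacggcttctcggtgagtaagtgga
FANCG: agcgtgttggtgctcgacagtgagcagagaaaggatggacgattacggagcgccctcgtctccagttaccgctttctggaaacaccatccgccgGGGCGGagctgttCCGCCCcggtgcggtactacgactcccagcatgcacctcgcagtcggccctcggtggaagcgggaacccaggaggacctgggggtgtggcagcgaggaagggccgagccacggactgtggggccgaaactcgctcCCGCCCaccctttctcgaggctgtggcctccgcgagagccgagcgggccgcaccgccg
FANCA: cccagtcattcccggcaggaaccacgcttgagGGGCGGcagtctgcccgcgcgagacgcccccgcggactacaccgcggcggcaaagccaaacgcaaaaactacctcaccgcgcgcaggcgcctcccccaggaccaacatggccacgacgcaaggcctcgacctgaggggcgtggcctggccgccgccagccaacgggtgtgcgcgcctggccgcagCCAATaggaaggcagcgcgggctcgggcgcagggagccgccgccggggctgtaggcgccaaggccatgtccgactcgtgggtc
RefSeq windows were matched for 28 of the 30 genes, 36 windows in all, and none for NBN and FANCI. TTTCGCGC was in 5.56% of the 36 windows, against 0.515% of all 35116 promoter windows of the same length, and TTTCCCGC was in 8.33%, against 1.63%. The first match is that of EXO1 and FANCC and the second that of FANCC, FANCD2 and XRCC2. BRCA2, BRIP1 and RAD52 also rose in OVCAR8 at day 5, UBE2T and RAD54L also fell, and none of these had either E2F form. FANCC and XRCC2 were not called there. EXO1 has 2 windows, and only the first is shown. CCGGAAGT was in 11.1%, against 4.14%, in BRCA2, FANCD2, MRE11 and PALB2. The CCAAT box was in 36.1%, against 34.6%, and the GC box in 63.9%, against 45%. These counts describe letters in the windows and were not tested.

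The deposited values are RPKM, reads per kilobase scaled by the depth of the library, and the kilobases are those of the whole gene with its introns, so that 21 of the 30 genes have a median under 1 RPKM although they hold many reads. XRCC3 had the fewest, 25 in its lowest library, and FANCI the most, 6496 in its highest. Since introns count as length, a level is compared here only within a gene. The scaled totals ran from 23.09 to 45.56 M reads per library, with a median of 28.33 M reads. A pair of libraries stood apart in the share of reads at the ribosomal RNA locus of 21p, EPZ015666 library B of day 5 in OVCAR8 with 4.54% and EPZ015666 library A of day 3 in BT549 with 1.39%, against a median of 0.289%. The markers of the labelled tissues went both ways. Of the ovarian markers, MSLN averaged 22.9 RPKM in OVCAR8 and 13.5 RPKM in COV362, against 1.58 RPKM in BT549 and 0.511 RPKM in MDAMB436, and PAX8 was higher in both ovarian lines too, but WT1 was lower in both, and MUC16 was 9.96e-05 RPKM in OVCAR8, under the 0.142 RPKM of MDAMB436. Of the breast markers, GATA3 was 4.57 RPKM in BT549 but 0.0601 RPKM in MDAMB436, and KRT8 and KRT18 were higher in both ovarian lines than in either breast line. In these bulk samples fewer cells that express a gene and less of its RNA per cell cannot be told apart.

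Without drug the 30 genes differed between the 4 lines. In the DMSO libraries of day 5 all 30 passed the F test of limma for a difference between lines, against 91.8% of all genes tested, and limma-voom on the recovered reads also called all 30, against 98.8%. The mean of the highest line was 1.51 times (PALB2) to 4.37 times (XRCC3) that of the lowest, with a median of 2.58, and 20 genes reached a ratio of 2. COV362 and MDAMB436 were each highest for 10 genes, OVCAR8 for 6 and BT549 for 4. OVCAR8 was lowest for 12 genes, BT549 for 11, COV362 for 4 and MDAMB436 for 3.

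BRCA1, a ubiquitin ligase that starts repair by recombination, had 0.573 and 0.547 RPKM in BT549, 0.428 and 0.455 RPKM in COV362, 0.25 and 0.282 RPKM in MDAMB436, and 0.152 and 0.16 RPKM in OVCAR8. No neighbours in that order overlapped. RAD51AP1, which helps DNA strands pair, ran the other way for BT549: MDAMB436 had 3.63 and 3.76 RPKM, COV362 2.95 and 3.04 RPKM, OVCAR8 2.01 and 1.77 RPKM, and BT549 1.16 and 0.987 RPKM. BRCA2, a mediator of strand exchange, fell into 2 pairs of lines. It had 0.317 and 0.332 RPKM in MDAMB436 and 0.303 and 0.34 RPKM in COV362, which overlapped, and 0.206 and 0.197 RPKM in BT549 and 0.169 and 0.214 RPKM in OVCAR8, which overlapped as well. MRE11, the nuclease that starts end resection, was lowest in MDAMB436, with 0.276 and 0.286 RPKM, against 1.01 RPKM in each OVCAR8 library. FANCL, the ligase of the Fanconi core complex, was highest in COV362, with 0.751 and 0.782 RPKM, against 0.249 and 0.247 RPKM in BT549.

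**Figure D1:**
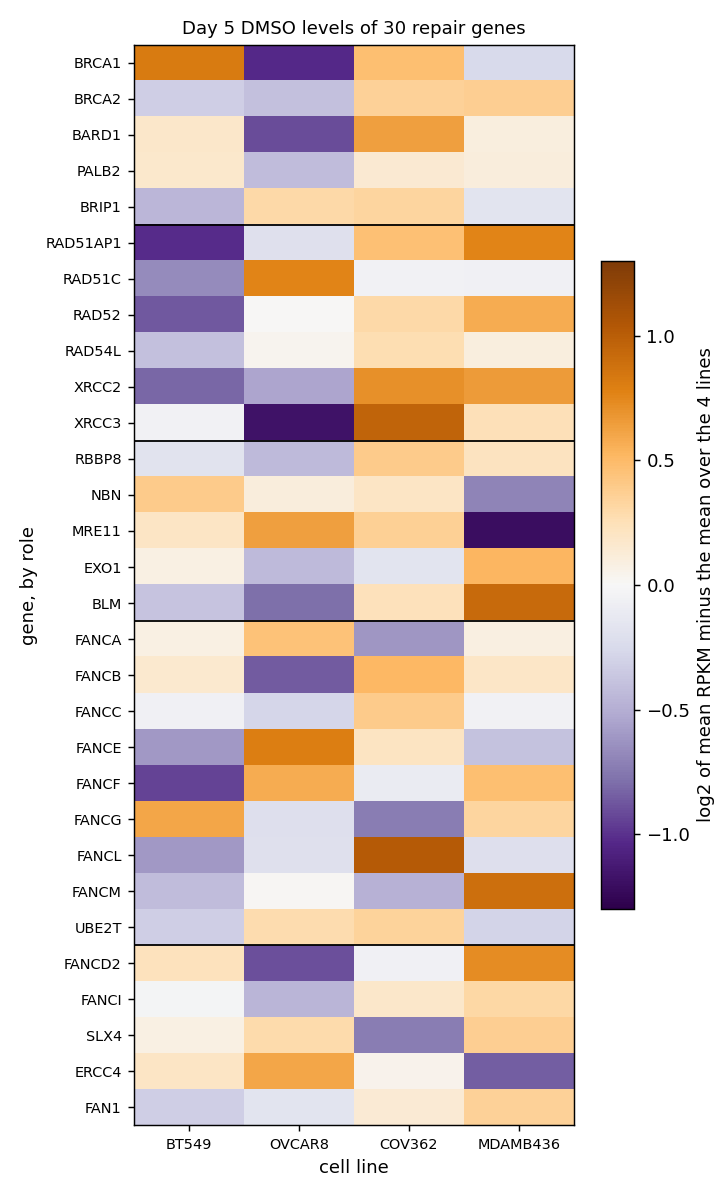
Levels of the 30 genes in the DMSO cultures of day 5, by cell line. The colour is the log2 of the mean RPKM of 2 libraries minus the mean over the 4 lines, and black lines part the roles. BRCA1 is highest in BT549 (0.56 RPKM) and lowest in OVCAR8 (0.156 RPKM), and RAD51AP1 is highest in MDAMB436 (3.69 RPKM) and lowest in BT549 (1.07 RPKM).

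With EPZ015666 the 30 genes did not move as a block: in each of the 6 comparisons some rose and others fell. The common effect is the mean of the log2 changes of the 4 lines at day 5. A gene called in it need not change alike in each line. FANCL, called lower in it, had a ratio of EPZ015666 to DMSO of 0.52 in COV362 and 1.02 in MDAMB436. Over the 4 lines at day 5, 9 of 30 rose and 7 fell in the common effect of limma, 53.3% in all, against 59.4% of all genes. The median log2 change of the 30 was 0.01 and that of all genes 0.01. A call here is an adjusted p under 0.05 on log2(RPKM + 0.05), a scale that understates changes of low levels. In the same fit 17 of 30 had an effect that differed between the lines, 56.7%, against 58.8% of all genes. Limma-voom on recovered reads gave 18 calls in each, against 63.7% and 66.4% of all genes.

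Within the lines the calls were fewer. At day 5 in BT549, 5 of 30 rose and 2 fell, 23.3% in all, against 25.4% of all genes (11.4% higher and 14% lower). At day 3 in BT549, 1 rose and 5 fell, 20%, against 10.2% of all genes (4.61% higher and 5.57% lower). In OVCAR8 at day 5, 6 rose and 5 fell, 36.7%, against 37.3% (17.6% higher and 19.7% lower). In OVCAR8 at day 3, 5 rose and 5 fell, 33.3%, against 21.4% (9.68% higher and 11.7% lower). In COV362, 4 rose and 7 fell, 36.7%, against 47.3% (23.9% higher and 23.4% lower). In MDAMB436, 4 rose and 1 fell, 16.7%, against 18.1% (8.69% higher and 9.42% lower). By these calls the share of members was above that of all genes at day 3 and under it at day 5, a difference that was not tested. It changed with the cut. At an unadjusted limma p under 0.05 the day 5 share was 46.7% in BT549 (38.8% of all genes) and 56.7% in OVCAR8 (47.1% of all genes). It was 50% in MDAMB436 (37.8% of all genes) and 40% in COV362 (55.6% of all genes).

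The RPKM fit of a single line is the more cautious of the tests used. Limma-voom called 13 of the 30 at day 5 (42.7% of all genes) and 9 at day 3 (25.6% of all genes) in BT549, 14 at day 5 (55.9% of all genes) and 16 at day 3 (38.6% of all genes) in OVCAR8, 19 in COV362 (70.7% of all genes) and 14 in MDAMB436 (48.4% of all genes). The counts changed with the libraries in the fit, and leaving out 1 library also leaves less data to estimate the spread. Without 1 library of the line they ran from 0 to 11 at day 5 and from 1 to 5 at day 3 in BT549, from 8 to 12 at day 5 and from 3 to 10 at day 3 in OVCAR8, from 1 to 6 in COV362, and were 0 in MDAMB436. Within a line, the counts without the OVCAR8 or BT549 library that stood apart were no lower than those without the other EPZ015666 library of its group. In the common effect the count was lower without that OVCAR8 library than without the other of its group. The EPZ015666 and DMSO libraries did not overlap for 66.7% to 80% of the 30 genes, against 69.1% of all genes at day 5 and 53% at day 3 in BT549, 69.8% at day 5 and 63.2% at day 3 in OVCAR8, 76.6% in COV362 and 66.7% in MDAMB436.

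**Figure D2:**
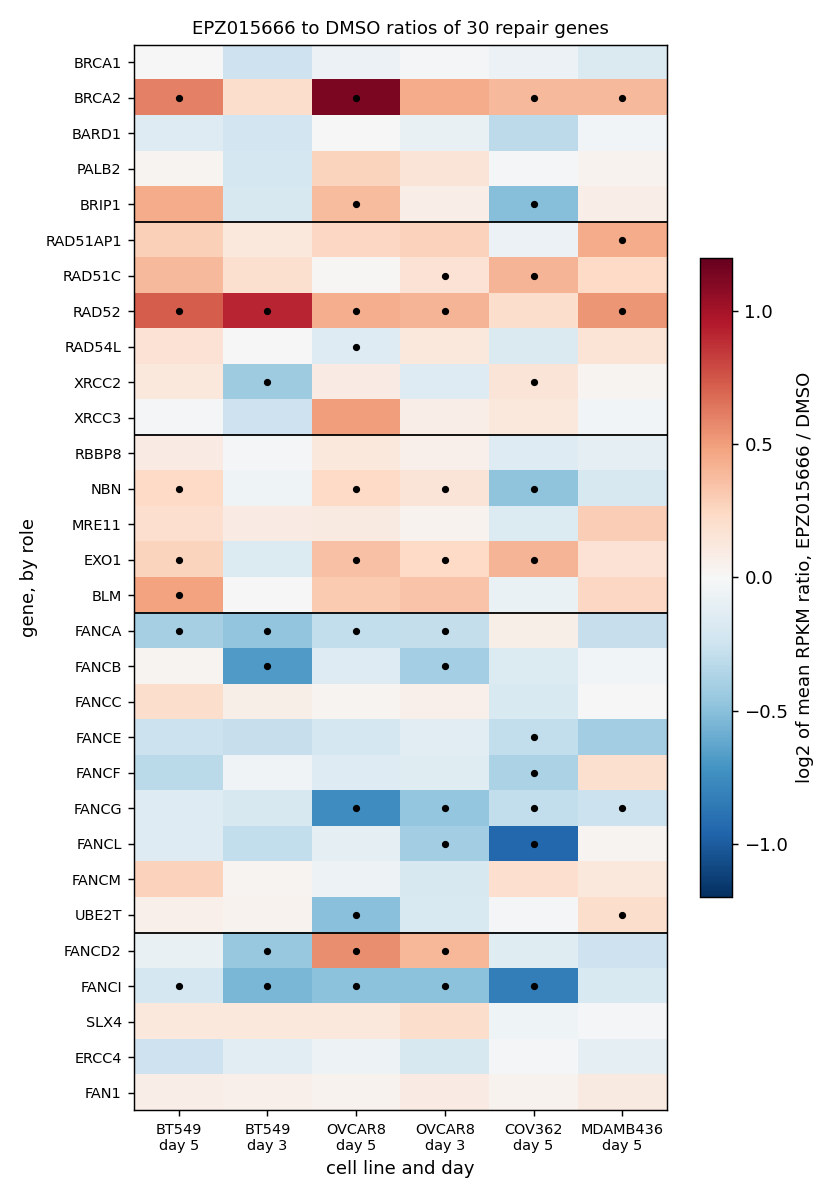
Ratio of the mean RPKM with EPZ015666 to that with DMSO, on a log2 colour scale, for the 30 genes in the 6 comparisons, with a black dot where limma called the change. Black lines part the roles. RAD52 is dotted as higher in 5 of the 6 columns and BRCA2 in 4, and FANCI is dotted as lower in 5 and FANCA and FANCG in 4 each.

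Of the 5 BRCA1 complex and mediator genes, BRCA2 rose in the common effect and the other 4 (BRCA1, BARD1, PALB2, BRIP1) did not pass the RPKM fit. In that effect BARD1 (lower, adjusted p = 0.029) and BRIP1 (higher, 0.0468) passed limma-voom. The common log2 change of BRCA2 was 0.54 ± 0.05 (SE), with adjusted p = 2e-07 and a call in each of the 24 fits without 1 library. In OVCAR8 at day 5 its level was 0.45 and 0.386 RPKM with EPZ015666, against 0.169 and 0.214 RPKM with DMSO, a ratio of 2.19 and the highest of any member in that comparison (log2 change 0.96 ± 0.11, adjusted p = 0.00257). That call also stood without each of the 8 libraries. The groups did not overlap in any of the 6 comparisons.

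In BT549 at day 5 BRCA2 was 0.316 and 0.293 RPKM with EPZ015666, against 0.206 and 0.197 RPKM with DMSO (ratio 1.52, log2 change 0.50 ± 0.09, adjusted p = 0.0123). The ratio was 1.31 in COV362, with 0.41 and 0.431 RPKM, against 0.303 and 0.34 RPKM, and 1.31 in MDAMB436, with 0.428 and 0.424 RPKM, against 0.317 and 0.332 RPKM. These rises were called (adjusted p = 0.0346 in COV362 and 0.0382 in MDAMB436), but the calls ended without any 1 of the 4 libraries in both lines, at up to adjusted p = 0.153 in COV362 and 0.213 in MDAMB436, and in 4 of 8 such fits in BT549, at up to 0.0783. At day 3 the ratio was 1.16 in BT549 and 1.36 in OVCAR8, and neither passed the RPKM fit; limma-voom called OVCAR8 (adjusted p = 0.000509).

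BRIP1, a helicase that binds BRCA1, went in opposite directions. In BT549 at day 5 it was 0.151 and 0.141 RPKM with EPZ015666, against 0.105 and 0.11 RPKM with DMSO (ratio 1.36). That rise did not pass the RPKM fit (adjusted p = 0.0772) and passed limma-voom (0.00173). In OVCAR8 at day 5 BRIP1 was 0.234 and 0.237 RPKM with EPZ015666, against 0.168 and 0.195 RPKM with DMSO (ratio 1.3, adjusted p = 0.0209). In COV362 it was 0.131 and 0.13 RPKM, against 0.176 and 0.196 RPKM (ratio 0.704, adjusted p = 0.0338). The effect differed between lines (F test, adjusted p = 0.000216). The rise was not called without DMSO library A or without either EPZ015666 library of day 5 in OVCAR8 (adjusted p = 0.0588 to 0.0861), and the fall ended without any 1 of the 4 libraries of COV362 (0.0802 to 0.121).

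BRCA1 was called in none of the 6 comparisons by the RPKM fit, with ratios of 0.841 to 0.994 that all lay under 1. At day 5 it was 0.58 and 0.534 RPKM with EPZ015666, against 0.573 and 0.547 RPKM with DMSO in BT549, and 0.161 and 0.137 RPKM, against 0.152 and 0.16 RPKM in OVCAR8. Those groups overlapped. In COV362 it was 0.422 and 0.421 RPKM, against 0.428 and 0.455 RPKM, and in MDAMB436 0.243 and 0.228 RPKM, against 0.25 and 0.282 RPKM. The common log2 change was -0.07 ± 0.04 (adjusted p = 0.123). At day 3 in BT549, with 0.579 and 0.618 RPKM, against 0.753 and 0.671 RPKM, limma-voom called it lower (adjusted p = 0.0175). Reads of BRCA1 may be shared with a partial copy. BARD1, the partner of BRCA1 in its ligase, had ratios of 0.804 to 0.998, and PALB2, which links BRCA1 to BRCA2, of 0.864 to 1.2. Neither was called in any of the 6 by the RPKM fit. BARD1 in COV362 (lower, adjusted p = 0.000853) and PALB2 in OVCAR8 at day 5 (higher, 0.0307) passed limma-voom.

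Among the strand exchange genes, 4 of 6 rose in the common effect (RAD52, RAD51C, RAD51AP1, XRCC2), none fell, and RAD54L and XRCC3 did not pass. The share of all genes that rose in that effect was 30.3%. RAD52, which anneals single strands, rose most often, in 5 of the 6 comparisons, and its groups did not overlap in any. Its common log2 change was 0.38 ± 0.04 (adjusted p = 1.41e-06), called in all 24 fits without 1 library.

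In BT549 RAD52 was 0.159 and 0.193 RPKM with EPZ015666 at day 5, against 0.0969 and 0.115 RPKM with DMSO (ratio 1.66, log2 change 0.53 ± 0.11, adjusted p = 0.0211). At day 3 it was 0.185 and 0.18 RPKM, against 0.0983 and 0.0957 RPKM (ratio 1.88, log2 change 0.66 ± 0.11, adjusted p = 0.024), the highest ratio of any member in that comparison. MDAMB436 had 0.406 and 0.426 RPKM, against 0.284 and 0.293 RPKM (ratio 1.44, adjusted p = 0.0279). At day 5 the ratio was smaller in OVCAR8 (1.35) and COV362 (1.16), and a split by tissue was not tested. The F test over the 4 lines gave adjusted p = 0.0646 by the RPKM fit and 0.024 by limma-voom.

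OVCAR8 had 0.268 and 0.258 RPKM with EPZ015666 at day 5, against 0.19 and 0.198 RPKM with DMSO (ratio 1.35, adjusted p = 0.0208), and 0.256 and 0.217 RPKM at day 3, against 0.176 and 0.178 RPKM (ratio 1.33, adjusted p = 0.0418). COV362 had 0.266 and 0.287 RPKM, against 0.234 and 0.242 RPKM, a ratio of 1.16 that did not pass the RPKM fit (adjusted p = 0.101) and passed limma-voom (0.0135). The calls of RAD52 within a line did not all stand when 1 library was left out. They ended in 3 of 8 fits at day 5 and 4 of 8 at day 3 in BT549, in 4 of 8 at day 5 and 7 of 8 at day 3 in OVCAR8, and in all 4 in MDAMB436, at up to adjusted p = 0.183.

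RAD51C, a strand exchange gene, had a common log2 change of 0.23 ± 0.04 (adjusted p = 9.72e-05). It was 0.579 and 0.662 RPKM with EPZ015666 in COV362, against 0.461 and 0.471 RPKM with DMSO (ratio 1.33, adjusted p = 0.0318), and 0.411 and 0.383 RPKM in BT549 at day 5, against 0.316 and 0.292 RPKM (ratio 1.31, adjusted p = 0.0572). In OVCAR8 it was called at day 3 (1.09 and 1.12 RPKM, against 0.991 and 0.968 RPKM, adjusted p = 0.0417) and overlapped at day 5, with a ratio of 1.01. The rises of RAD51C in BT549 at day 5 (adjusted p = 0.0109) and in MDAMB436 (0.019) passed limma-voom. The day 3 call ended in 6 of 8 fits without 1 library (up to adjusted p = 0.17) and in 1 fit of all 24 libraries (0.121). The COV362 call ended without either DMSO library or EPZ015666 library B (0.0765 to 0.159).

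RAD51AP1 had a common log2 change of 0.22 ± 0.04 (adjusted p = 0.000239) and was called within a line in MDAMB436, with 5.01 and 5.05 RPKM with EPZ015666, against 3.63 and 3.76 RPKM with DMSO (ratio 1.36, log2 change 0.44 ± 0.04, adjusted p = 0.0188). That call ended without any 1 of the 4 libraries (adjusted p = 0.0908 to 0.161). In BT549 at day 5 it was 1.29 and 1.33 RPKM, against 1.16 and 0.987 RPKM, and in OVCAR8 2.35 and 2.14 RPKM, against 2.01 and 1.77 RPKM. Both sets lay apart, with adjusted p = 0.0779 and 0.0825. COV362 went the other way, with 2.8 and 2.92 RPKM, against 2.95 and 3.04 RPKM (ratio 0.955, adjusted p = 0.227). At day 3 the ratios were 1.09 in BT549 and 1.21 in OVCAR8, not called by the RPKM fit; limma-voom called the OVCAR8 libraries of both days and BT549 at day 5.

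XRCC2, another strand exchange gene, was called lower in BT549 at day 3 and higher in COV362. In BT549 it was 0.409 and 0.432 RPKM with EPZ015666 at day 3, against 0.584 and 0.55 RPKM with DMSO (ratio 0.742, log2 change -0.39 ± 0.06, adjusted p = 0.0153), and at day 5 0.455 and 0.444 RPKM, against 0.414 and 0.411 RPKM (ratio 1.09, not called). The difference between these 2 effects did not pass the RPKM fit (adjusted p = 0.0613). COV362 had 1.3 and 1.31 RPKM, against 1.16 and 1.2 RPKM (adjusted p = 0.0431). The BT549 call ended without DMSO library A or either EPZ015666 library of day 3 (0.0533 to 0.0626), and the COV362 call without any 1 of the 4 libraries (0.102 to 0.155).

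RAD54L, a motor protein that moves along DNA, was called lower in COV362 by limma-voom alone (adjusted p = 0.0254). The RPKM fit called it once, lower in OVCAR8 at day 5 (0.666 and 0.685 RPKM, against 0.754 RPKM in each DMSO library, ratio 0.896, adjusted p = 0.0328). The call ended with limma-voom (0.0629) and in 6 of 8 fits without 1 library (up to 0.137). LRRC41, on the opposite strand, covers 56.1% of the RAD54L span, and its own ratio in that comparison was 0.862. Whether the authors counted by strand is not given in the sources used here. XRCC3, which KLC1 covers over 93% of its span, had ratios of 0.844 to 1.42 and was called in none of the 6.

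Of the 5 genes of end resection and dissolution, 3 rose in the common effect (EXO1, BLM, MRE11), none fell, and NBN and RBBP8 did not pass, where 30.3% of all genes rose. EXO1, an exonuclease that lengthens resected ends, had a common log2 change of 0.29 ± 0.03 (adjusted p = 1.1e-06) and was called in all 24 fits without 1 library. In OVCAR8 it was 0.946 and 0.924 RPKM with EPZ015666 at day 5, against 0.724 and 0.732 RPKM with DMSO (ratio 1.28, log2 change 0.34 ± 0.03, adjusted p = 0.00133), and 1.2 and 1.21 RPKM at day 3, against 1.01 and 1.03 RPKM (ratio 1.18, adjusted p = 0.00854). The day 5 call stood without each of the 8 libraries and the day 3 call ended without DMSO library A of day 3 (0.0532).

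In COV362 EXO1 was 1.11 and 1.21 RPKM with EPZ015666, against 0.837 and 0.912 RPKM with DMSO (ratio 1.33, adjusted p = 0.0223), and in BT549 at day 5 1.26 and 1.24 RPKM, against 1.09 and 0.993 RPKM (ratio 1.2, adjusted p = 0.0446). The COV362 call ended without any 1 of the 4 libraries (0.0709 to 0.11), and that of BT549 in 6 of 8 fits (up to 0.193) and with no filter on low values (0.0513). At day 3 BT549 lay the other way, with 1.2 and 1.15 RPKM, against 1.38 and 1.25 RPKM, and was not called. MDAMB436 had 1.53 and 1.64 RPKM, against 1.37 and 1.44 RPKM (ratio 1.13, adjusted p = 0.127, and 0.0117 by limma-voom).

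NBN, which holds the MRE11 nuclease at the break, rose in OVCAR8 and BT549 and fell in COV362. With EPZ015666 it was 1.87 and 1.86 RPKM in OVCAR8 at day 5, against 1.53 and 1.63 RPKM with DMSO (ratio 1.18, adjusted p = 0.00769), and 2.28 and 2.29 RPKM in BT549 at day 5, against 2.01 and 1.86 RPKM (ratio 1.18, adjusted p = 0.0482). In COV362 it was 1.16 and 1.27 RPKM, against 1.66 and 1.72 RPKM (ratio 0.716, log2 change -0.47 ± 0.06, adjusted p = 0.0109). In MDAMB436 it was 0.787 and 0.805 RPKM, against 0.875 and 0.943 RPKM (ratio 0.876), called lower by limma-voom (adjusted p = 0.00903) and not by the RPKM fit. The difference between the lines passed the F test (adjusted p = 1.26e-05), and did so in all 24 fits without 1 library.

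The OVCAR8 call of NBN at day 5 stood without each of the 8 libraries. At day 3 NBN was also called there (1.91 and 1.9 RPKM, against 1.74 and 1.68 RPKM, adjusted p = 0.0472), a call that ended in 6 of 8 fits without 1 library (up to 0.192) and in 1 fit of all 24 libraries (0.063). The BT549 call ended in 6 of 8 (up to 0.207) and with no filter on low values (0.0526), and that of COV362 without either DMSO library (0.0758 to 0.083). In BT549 at day 3 NBN was 2.28 RPKM in each EPZ015666 library, against 2.49 and 2.24 RPKM, which overlapped.

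BLM, a helicase that takes apart joined molecules, had a common log2 change of 0.20 ± 0.03 (adjusted p = 6.94e-05) and was called in BT549 at day 5, with 0.35 and 0.324 RPKM with EPZ015666, against 0.254 and 0.228 RPKM with DMSO (ratio 1.4, adjusted p = 0.0118). That call ended without DMSO library B or EPZ015666 library A of day 5 (0.0648 to 0.0745). In MDAMB436 it was 0.704 and 0.702 RPKM, against 0.574 and 0.612 RPKM (ratio 1.19, adjusted p = 0.0706), and in OVCAR8 at day 5 0.216 and 0.234 RPKM, against 0.191 and 0.172 RPKM (ratio 1.24, adjusted p = 0.0688). Rises of BLM passed limma-voom in MDAMB436 (adjusted p = 0.000782) and in OVCAR8 at day 5 (0.00628) and day 3 (0.00237). COV362 had 0.349 and 0.352 RPKM, against 0.372 and 0.37 RPKM. The effect differed between lines (adjusted p = 0.00274).

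MRE11 had a common log2 change of 0.10 ± 0.03 (adjusted p = 0.00615), and no call within a line by the RPKM fit. Limma-voom called it higher in BT549 at day 5 (adjusted p = 0.028) and MDAMB436 (0.00232) and lower in COV362 (0.00695). Its ratio was 1.23 in MDAMB436 (0.338 and 0.352 RPKM, against 0.276 and 0.286 RPKM) and 0.892 in COV362 (0.743 and 0.746 RPKM, against 0.791 and 0.879 RPKM), and the difference between lines passed (adjusted p = 0.00217). RBBP8, which activates the nuclease, had ratios of 0.896 in COV362 (0.36 and 0.355 RPKM, against 0.397 and 0.401 RPKM) to 1.09 in OVCAR8 at day 5 (0.248 and 0.245 RPKM, against 0.234 and 0.217 RPKM). The RPKM fit called RBBP8 in none of the 6, and limma-voom called it lower in COV362 (adjusted p = 0.00169). Its difference between lines (F test, adjusted p = 0.0437) ended in 15 of 24 fits without 1 library.

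In the common effect the Fanconi core complex and its ligase went mostly the other way. Of 9 genes, 5 fell in the common effect (FANCG, FANCA, FANCL, FANCE, FANCF), FANCM rose (log2 change 0.11 ± 0.05, adjusted p = 0.0485, ended in 15 of 24 fits without 1 library, at up to 0.122), and FANCB, FANCC and UBE2T did not pass. The share of all genes that fell in that effect was 29.1%. By line at day 5 the median log2 change of the 9 was -0.125 in BT549, -0.156 in OVCAR8, -0.152 in COV362 and 0 in MDAMB436. FANCG, a scaffold of the complex, had the largest common fall among these, -0.36 ± 0.03 (adjusted p = 4.98e-08), and its groups did not overlap in any of the 6 comparisons.

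FANCG was 5.56 and 4.94 RPKM with EPZ015666 in OVCAR8 at day 5, against 8.46 and 9.1 RPKM with DMSO (ratio 0.598, log2 change -0.74 ± 0.07, adjusted p = 0.00117), the lowest ratio of any member there. At day 3 it was 6.58 and 6.53 RPKM, against 9.27 and 8.76 RPKM (ratio 0.727, adjusted p = 0.00972). The day 5 call stood without each of the 8 libraries, and the day 3 call ended without DMSO library A or EPZ015666 library B of day 3 (0.0538 to 0.0596). In COV362 it was 4.96 and 5.05 RPKM, against 6.17 and 6.08 RPKM (ratio 0.817, adjusted p = 0.00501; 0.0521 without DMSO library A), and in MDAMB436 10.8 and 10.3 RPKM, against 12.6 and 12.8 RPKM (ratio 0.835, adjusted p = 0.0315; not called without any 1 of the 4 libraries, 0.116 to 0.176). BT549 was lower too, without a call by the RPKM fit, with 13.8 and 13.9 RPKM at day 5, against 15.7 and 15.1 RPKM (ratio 0.899), and 13.3 RPKM in each library at day 3, against 14.5 and 15.8 RPKM (ratio 0.876). Its fall at day 3 passed limma-voom (adjusted p = 0.0369). The effect differed between lines (adjusted p = 9.94e-05).

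FANCA, a subunit of the core complex, fell in BT549 and OVCAR8 at both days. In BT549 it was 0.447 and 0.407 RPKM with EPZ015666 at day 5, against 0.544 and 0.584 RPKM with DMSO (ratio 0.757, adjusted p = 0.0209), and 0.502 and 0.501 RPKM at day 3, against 0.659 and 0.734 RPKM (ratio 0.72, adjusted p = 0.0259). In OVCAR8 it was 0.596 and 0.595 RPKM at day 5, against 0.712 and 0.746 RPKM (ratio 0.817, adjusted p = 0.00478), and 0.766 and 0.761 RPKM at day 3, against 0.916 and 0.952 RPKM (ratio 0.818, adjusted p = 0.0086). The ratios of a line were thus close at the 2 days. The OVCAR8 call of day 5 stood without each library and that of day 3 ended without DMSO library B of day 3 (0.0548), while the BT549 calls ended in 4 of 8 fits at day 5 (up to 0.112) and 7 of 8 at day 3 (up to 0.113).

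COV362 did not share the fall of FANCA, with 0.38 and 0.352 RPKM with EPZ015666, against 0.345 and 0.351 RPKM with DMSO (ratio 1.05, not called), and MDAMB436 had 0.493 and 0.442 RPKM, against 0.57 and 0.562 RPKM (ratio 0.827, adjusted p = 0.0944, and 0.00105 by limma-voom). The difference between lines passed (adjusted p = 0.00327). The common log2 change was -0.21 ± 0.03 (adjusted p = 3.68e-05).

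FANCL had the lowest ratio of any member in COV362. It was 0.378 and 0.42 RPKM there with EPZ015666, against 0.751 and 0.782 RPKM with DMSO (ratio 0.52, log2 change -0.86 ± 0.07, adjusted p = 0.00443). In MDAMB436 the groups overlapped, with 0.315 and 0.347 RPKM, against 0.331 and 0.321 RPKM, and in OVCAR8 at day 5 they overlapped too, with 0.292 and 0.32 RPKM, against 0.353 and 0.304 RPKM. BT549 had 0.219 and 0.227 RPKM, against 0.249 and 0.247 RPKM (ratio 0.9, not called). The difference between lines passed (adjusted p = 1.47e-05; at most 0.000202 without any 1 library). In OVCAR8 at day 3 FANCL was called lower (0.278 and 0.276 RPKM, against 0.358 and 0.382 RPKM, ratio 0.749, adjusted p = 0.0326). A fall in BT549 at day 3 (ratio 0.815) passed limma-voom alone (adjusted p = 0.0234). The COV362 call ended without DMSO library A or B (0.052 to 0.0522), and the OVCAR8 call in 6 of 8 fits without 1 library (up to 0.144).

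UBE2T, which works with FANCL to attach ubiquitin to FANCD2 and FANCI, fell in OVCAR8 at day 5, with 4.75 and 4.8 RPKM with EPZ015666, against 6.94 and 6.56 RPKM with DMSO (ratio 0.708, log2 change -0.49 ± 0.05, adjusted p = 0.00195), a call that stood without each library. It was called higher in MDAMB436, with 5.23 and 5.26 RPKM, against 4.52 and 4.55 RPKM (ratio 1.16, adjusted p = 0.0315), but not without any 1 of the 4 libraries (0.0976 to 0.184) nor in 1 fit of all 24 libraries (0.0554). In OVCAR8 at day 3 UBE2T was 5.42 and 5.58 RPKM, against 6.55 and 5.94 RPKM (ratio 0.88). That fall did not pass the RPKM fit and passed limma-voom (adjusted p = 0.0146). COV362 and BT549 overlapped, with ratios of 0.991 in COV362, 1.04 in BT549 at day 5 and 1.03 at day 3. The difference between lines passed (adjusted p = 0.000655).

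FANCE, which links the core complex to FANCD2, was lower in all 4 EPZ015666 groups of day 5 with no overlap, at ratios of 0.75 to 0.866, and had a common log2 change of -0.28 ± 0.04 (adjusted p = 7.02e-05). It was called within a line in COV362, with 1.51 and 1.56 RPKM, against 1.87 and 1.89 RPKM (adjusted p = 0.00883), a call that ended without either DMSO library or EPZ015666 library A (0.0504 to 0.0692). The falls of FANCE in OVCAR8 at day 5 (adjusted p = 0.0133) and in MDAMB436 (0.00192) passed limma-voom. FANCF, an adaptor of the core, was called in COV362 (3.07 and 3.35 RPKM, against 4.31 and 4.06 RPKM, ratio 0.767, adjusted p = 0.0176) and lay the other way in MDAMB436 (6.44 and 7.78 RPKM, against 6.31 and 6.22 RPKM, not called). Its COV362 call ended without either DMSO library or EPZ015666 library A (0.0704 to 0.105). Its common fall (log2 change -0.17 ± 0.06, adjusted p = 0.0228) ended in 5 of 24 fits without 1 library, at up to 0.0624, and its difference between lines (0.038) in 12 of 24, at up to 0.171.

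FANCB, a core subunit encoded on the X chromosome, was lower at day 3. In BT549 it was 0.406 RPKM in each EPZ015666 library of day 3, against 0.657 and 0.648 RPKM with DMSO (ratio 0.623, the lowest of any member there, log2 change -0.62 ± 0.07, adjusted p = 0.00922), and in OVCAR8 0.296 and 0.308 RPKM, against 0.396 and 0.403 RPKM (ratio 0.756, adjusted p = 0.00867). The calls ended without EPZ015666 library B of day 3 in BT549 (0.0575) and without DMSO library B of day 3 in OVCAR8 (0.0563). At day 5 the ratios were 1.02 in BT549 and 0.9 in OVCAR8, and neither was called. FANCB in COV362 (ratio 0.892) passed limma-voom alone (adjusted p = 0.0398). FANCC, another core subunit, ranged from 0.883 in COV362 (0.161 and 0.157 RPKM, against 0.18 RPKM in each DMSO library) to 1.16 in BT549 at day 5 (0.147 and 0.158 RPKM, against 0.131 and 0.132 RPKM). The RPKM fit called FANCC in none of the 6. Limma-voom called it higher in BT549 at day 5 (adjusted p = 0.0217) and lower in COV362 (0.00207). Its difference between lines (F test, adjusted p = 0.0347) ended in 7 of 24 fits without 1 library.

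FANCI, which is clamped on DNA together with FANCD2, fell in 5 of the 6 comparisons and its groups did not overlap in any. Its common log2 change of -0.42 ± 0.02 was the largest fall of the 30 genes (adjusted p = 1.91e-09). In COV362 it was 1.05 and 1.12 RPKM with EPZ015666, against 1.92 and 1.95 RPKM with DMSO (ratio 0.561, log2 change -0.81 ± 0.05, adjusted p = 0.00295). In OVCAR8 it was 0.909 and 0.861 RPKM at day 5, against 1.25 and 1.24 RPKM (ratio 0.712, adjusted p = 0.000801), and 1.02 and 1.01 RPKM at day 3, against 1.4 and 1.45 RPKM (ratio 0.709, adjusted p = 0.00174). These calls stood without each library.

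In BT549 at day 3 FANCI was 1.4 and 1.47 RPKM with EPZ015666, against 2.15 and 2.03 RPKM with DMSO (ratio 0.685, adjusted p = 0.00639), which also stood without each library. At day 5 it was 1.48 and 1.42 RPKM, against 1.68 and 1.69 RPKM (ratio 0.862, adjusted p = 0.0338), a call that ended in 4 of 8 fits without 1 library (up to 0.161). MDAMB436 had 1.81 and 1.92 RPKM, against 2.06 and 2.17 RPKM (ratio 0.881), which did not pass the RPKM fit (adjusted p = 0.104) and passed limma-voom (0.0031). The size of the fall differed between lines (adjusted p = 7.55e-06). POLG overlaps 16.5% of the FANCI span on the opposite strand; its ratio was 1.56 in COV362, 1.34 in MDAMB436 and 1 in OVCAR8 at day 5.

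FANCD2, the partner of FANCI, rose in OVCAR8, where FANCI fell. In OVCAR8 it was 0.38 and 0.337 RPKM with EPZ015666 at day 5, against 0.239 and 0.249 RPKM with DMSO (ratio 1.47, log2 change 0.47 ± 0.07, adjusted p = 0.00511), and 0.508 and 0.479 RPKM at day 3, against 0.363 and 0.383 RPKM (ratio 1.32, adjusted p = 0.0209). The day 5 call stood without each library and the day 3 call ended in 4 of 8 fits (up to 0.104). In BT549 at day 3 FANCD2 was lower, with 0.468 and 0.489 RPKM, against 0.679 and 0.637 RPKM (ratio 0.728, adjusted p = 0.0275, ended in 6 of 8 fits, up to 0.0994), and at day 5 the groups overlapped, with 0.486 and 0.516 RPKM, against 0.501 and 0.567 RPKM.

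COV362 had 0.386 and 0.403 RPKM of FANCD2 with EPZ015666, against 0.417 and 0.454 RPKM with DMSO, and MDAMB436 0.602 and 0.656 RPKM, against 0.718 and 0.781 RPKM. Both lay lower without passing the RPKM fit (adjusted p = 0.19 in COV362 and 0.115 in MDAMB436). Limma-voom called both falls (adjusted p = 0.0385 in COV362 and 0.00187 in MDAMB436). The difference between lines passed the F test (adjusted p = 0.000189). FANCD2 has partial copies that may share its reads. Of the nucleases, ERCC4, which cuts beside the crosslink, had a small common fall (log2 change -0.10 ± 0.03, adjusted p = 0.00875), with ratios of 0.843 to 0.989 and no call in any of the 6 by the RPKM fit. It was 0.594 and 0.628 RPKM with EPZ015666 in BT549 at day 5, against 0.734 and 0.715 RPKM with DMSO, and 0.653 and 0.637 RPKM in COV362, against 0.653 and 0.651 RPKM. Falls of ERCC4 passed limma-voom in BT549 at day 5 (adjusted p = 0.0389) and in OVCAR8 at day 3 (0.0286). SLX4, the scaffold that carries nucleases, had ratios of 0.966 to 1.16, and FAN1, a nuclease recruited by FANCD2, of 1.03 to 1.08. The RPKM fit called neither of them in the 6 comparisons or in the common effect. Limma-voom called SLX4 higher in OVCAR8 at day 3 (adjusted p = 0.0168).

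**Figure D3:**
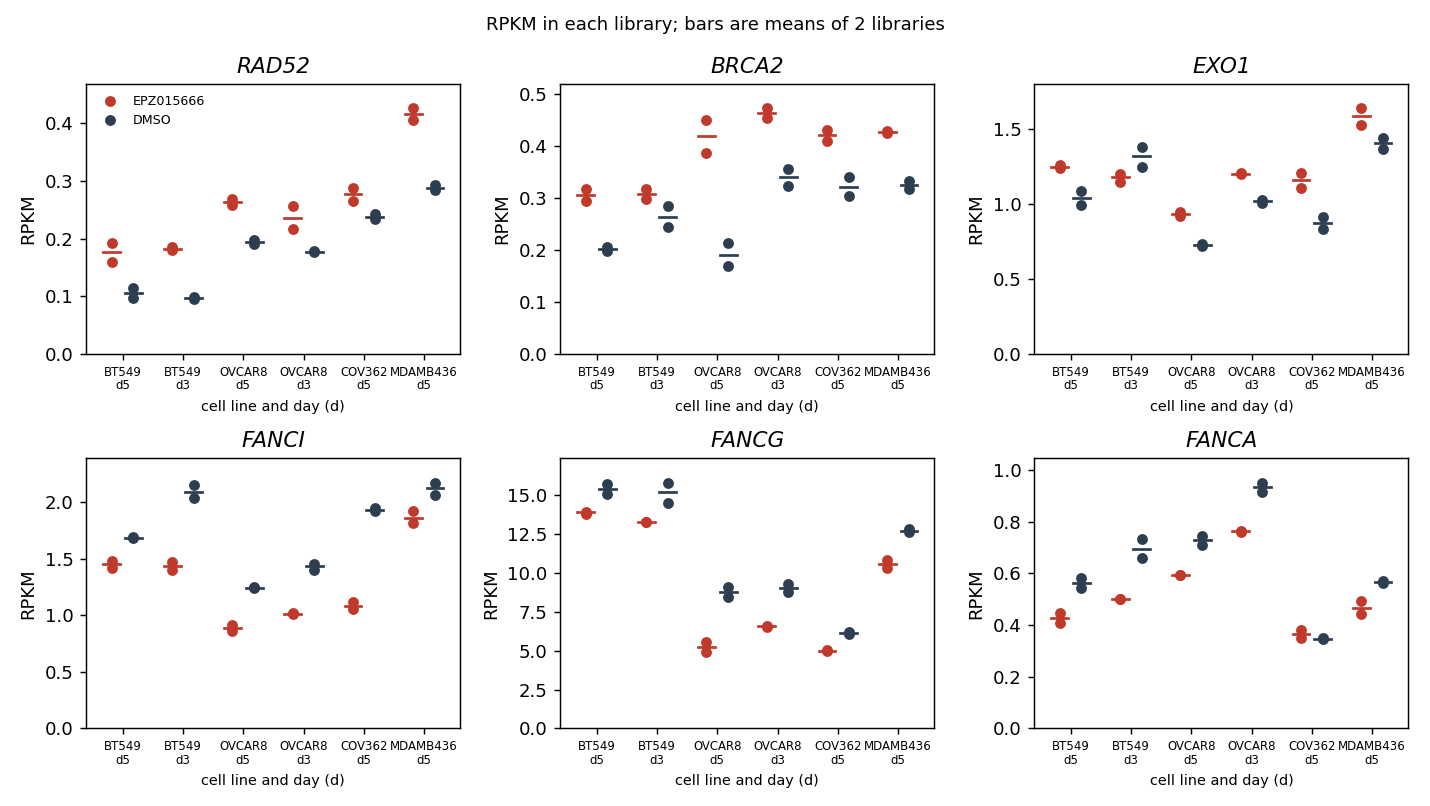
RPKM of 6 genes in each library, EPZ015666 in red and DMSO in dark blue, in the 6 comparisons (d5 and d3 are the days), with bars at the means of 2 libraries. The red points lie above the dark points in each comparison for RAD52 and BRCA2 and below them in each for FANCI and FANCG, while EXO1 lies lower in BT549 at day 3 (1.18 RPKM, against 1.32 RPKM) and FANCA slightly higher in COV362 (0.366 RPKM, against 0.348 RPKM).

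The vehicle cultures themselves differed between the days. In OVCAR8, DMSO at day 5 against DMSO at day 3, 12 of the 30 genes were lower and none higher (40%, against 19.4% of all genes, 9.85% higher and 9.57% lower), with a median log2 change of -0.21, against 0.00 for all genes. In BT549, 4 were lower and none higher (13.3%, against 6.5% of all genes, 4.18% higher and 2.32% lower), with a median of -0.17, against 0.01. Limma-voom called 17 lower in OVCAR8 (37.2% of all genes in either direction) and 13 lower in BT549 (20.8% of all genes in either direction). Without 1 library the counts were 4 to 11 in OVCAR8 and 0 to 2 in BT549. The calls of EXO1, FANCB, FANCA and BRIP1 in OVCAR8 stood without each of the 8 libraries.

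Genes of S phase and proliferation moved in the same direction in the vehicle. Of a list of 24, 15 were lower and none higher at day 5 in OVCAR8 (62.5%, against 19.4% of all genes). In BT549 5 of the 24 were lower and none higher (20.8%, against 6.5% of all genes). Their summed level was 269 RPKM in each DMSO library of day 5 in OVCAR8, against 299 to 305 RPKM at day 3, and 246 to 252 RPKM at day 5 in BT549, against 278 to 282 RPKM at day 3. With EPZ015666 at day 5 the sum was 254 to 258 RPKM in OVCAR8 and 277 to 281 RPKM in BT549. Since RPKM divides by the whole span, genes with short spans weigh more in this sum, and it is compared only within a line. No gene of the list was at 0 in these libraries, and its part in the changes of the 30 genes was not tested.

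BRCA2 shows the shift in OVCAR8. It was 0.191 ± 0.0314 RPKM with DMSO at day 5, against 0.339 ± 0.0228 RPKM with DMSO at day 3 (SD, n = 2 libraries each; log2 change -0.70 ± 0.11, limma adjusted p = 0.016, ended without DMSO library A of day 5 or either DMSO library of day 3 at up to 0.0875). With EPZ015666 it was 0.418 RPKM at day 5, against 0.463 RPKM at day 3. So the day 5 ratio to its own vehicle was 2.19 and the ratio of EPZ015666 at day 5 to DMSO at day 3 was 1.23. EXO1 was 0.714 times its day 3 level in the OVCAR8 vehicle, FANCD2 0.655 times, BRIP1 0.587 times, XRCC2 0.662 times and FANCB 0.611 times.

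Set against DMSO of day 3, EPZ015666 at day 5 gave 1 gene higher and 6 lower in BT549 (17.4% of all genes, 8.19% higher and 9.23% lower) and 1 higher and 11 lower in OVCAR8 (25.4% of all genes, 11.4% higher and 14% lower). RAD52 was the gene called higher in both lines, at 1.81 times in BT549 and 1.48 times in OVCAR8. FANCI was called lower, at 0.694 times in BT549 and 0.62 times in OVCAR8, and FANCA, at 0.613 times in BT549 and 0.638 times in OVCAR8. FANCG was 0.582 times in OVCAR8, and BRCA1 was called lower in BT549, at 0.782 times (adjusted p = 0.0404). EXO1 and BRIP1 changed direction in OVCAR8, to a log2 change of -0.12 (adjusted p = 0.0499) for EXO1 and -0.33 (adjusted p = 0.0224) for BRIP1, and the rise of BRCA2 was no longer called in OVCAR8 (0.26, adjusted p = 0.157) or BT549 (0.18, adjusted p = 0.216). FANCD2 in OVCAR8 was at -0.05 and EXO1 in BT549 at -0.07, neither of them called. These comparisons share their EPZ015666 libraries with the day 5 comparisons above.

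A difference of the drug effect between the days was called by the RPKM fit for none of the 30 genes in BT549 (0.772% of all genes) and none in OVCAR8 (0.366% of all genes, 0.209% higher and 0.157% lower), although 9 genes in BT549 (30%, against 19.2% of all genes) and 6 in OVCAR8 (20%, against 21.8%) had an unadjusted p under 0.05. Limma-voom called 8 genes in BT549, all more positive at day 5 (10.5% of all genes), and 4 in OVCAR8 (15.7% of all genes). The 8 were BRIP1, XRCC2, NBN, EXO1, BLM, FANCB, FANCD2 and FANCI, with FANCB at adjusted p = 0.00266. The 4 were BRCA2 (0.00334) and BRIP1 (0.0344), which were more positive at day 5, and UBE2T (0.0143) and FANCG (0.0457), which were more negative.

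**Figure D4:**
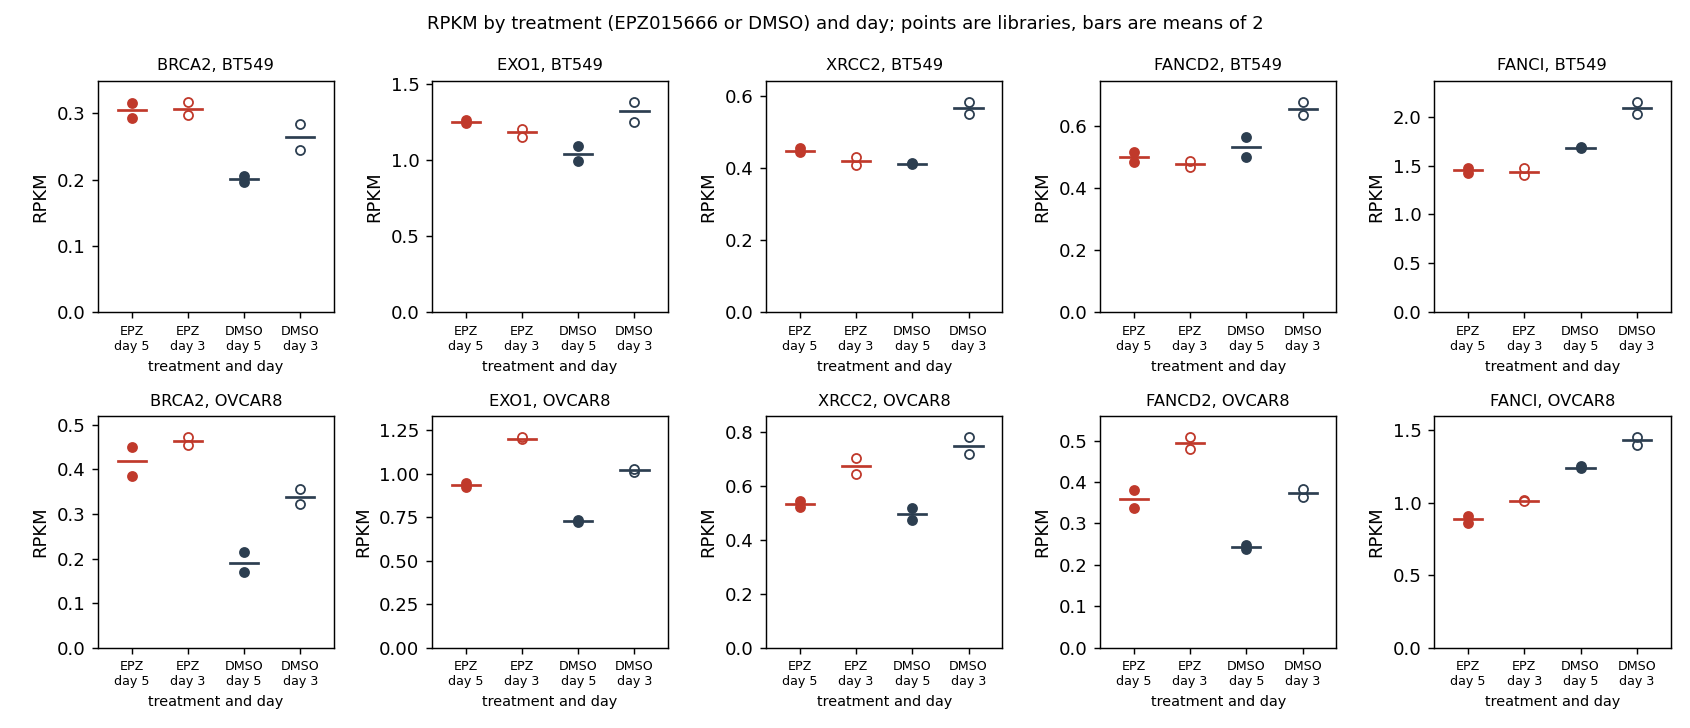
RPKM of 5 genes in BT549 (top) and OVCAR8 (bottom) by treatment and day. Points are libraries, filled at day 5 and open at day 3, and bars are means of 2. BRCA2 with DMSO in OVCAR8 lies at 0.191 RPKM at day 5, against 0.339 RPKM at day 3, while with EPZ015666 it lies at 0.418 RPKM, against 0.463 RPKM; FANCI with EPZ015666 lies under both DMSO groups in both lines.

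The other genes of these pathways also moved both ways. Of 40 partners of recombination and Fanconi proteins, 31 were tested. In the common effect 7 rose and 10 fell (54.8%, against 59.4% of all genes), with a median log2 change of -0.02. The smallest adjusted p values were those of SWI5, which acts in strand exchange, FAAP100, of the Fanconi core complex, and ERCC1, the partner of ERCC4. SWI5 was 1 and 0.883 RPKM with EPZ015666 in OVCAR8 at day 5, against 1.79 and 1.8 RPKM with DMSO (common log2 change -0.48 ± 0.03, adjusted p = 2.78e-08). FAAP100 was 1.17 and 1.13 RPKM with EPZ015666 in MDAMB436, against 2.42 and 2.2 RPKM with DMSO, and 2.01 RPKM in each EPZ015666 library of day 5 in OVCAR8, against 2.08 and 2.12 RPKM (common log2 change -0.53 ± 0.04, adjusted p = 5.04e-08). ERCC1 was lower in each of the 6 comparisons, at ratios of 0.69 to 0.883 (common log2 change -0.39 ± 0.04, adjusted p = 8.19e-07).

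End joining is the other main way to mend a break, without a template. Of 19 genes listed, 13 were tested and 5 rose and 5 fell in the common effect (76.9%, against 59.4% of all genes). PAXX, a scaffold of end joining, had a common log2 change of -0.25 ± 0.04 (adjusted p = 6.29e-05); it was lower in 5 of the 6 comparisons and higher in COV362 (38.4 and 40.2 RPKM, against 35.3 RPKM in each DMSO library). TP53BP1, which holds back resection, was lower in COV362 (0.658 and 0.664 RPKM, against 0.873 and 0.88 RPKM) and higher in OVCAR8 at day 5 (0.864 and 0.819 RPKM, against 0.737 and 0.724 RPKM).

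The list of S phase and proliferation had 8 of 24 genes higher and 7 lower in the common effect (62.5%, against 59.4% of all genes). By line at day 5, 10 rose and none fell in BT549, where 11.4% of all genes rose and 14% fell. In OVCAR8 3 rose and 5 fell (17.6% and 19.7% of all genes). COV362 had 6 higher and 5 lower (23.9% and 23.4%), and MDAMB436 none higher and 6 lower (8.69% and 9.42%). At day 3 none rose and 2 fell in BT549 (4.61% and 5.57%), and 4 rose and none fell in OVCAR8 (9.68% and 11.7%). CCNA2, a cyclin of S phase, was 23 RPKM on average with EPZ015666 in BT549 at day 5, against 19.1 RPKM with DMSO, and 11.9 RPKM in MDAMB436, against 15.5 RPKM. AURKA, a kinase of mitosis, was at a ratio of 1.42 in BT549 at day 5 and 0.997 in MDAMB436. CDC6, which licenses replication origins, was at 1.23 in BT549 at day 5 and 0.772 at day 3.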

How the data were processed

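Poly(A) RNA of 24 libraries was sequenced with stranded kits, per the labels' protocols. The deposited tables hold RPKM that the authors derived from reads counted with featureCounts on GRCh38, per the submitters' processing notes. Not given in the sources used here: aligner, annotation, strand setting and versions. Each RPKM times the GENCODE v29 gene span and the library total gave a whole number of reads within 0.02 read for 100% of values under 1000 reads, for the 16566 genes with a span (25 had none), so lengths include introns.

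The members and lists were chosen with earlier results of these data known. Values were transformed to log2(RPKM + 0.05) from the deposited RPKM. Genes that averaged 0.02 RPKM or more over the libraries compared were fitted with limma 3.58.1 (trend option, R 4.3.3), per cell line with 1 mean per group, and in 1 fit of 24 libraries for the common effect and the F tests between lines. All tests were two-sided, with Benjamini-Hochberg adjustment over all genes tested and a threshold of 0.05. All 30 members passed the filter in each line. On simulated data the per-line RPKM fit missed many real changes, most in lines with 4 libraries, so limma-voom on recovered reads (at least 1 CPM) is given beside it. Other settings were pseudocounts of 0.01 and 0.5, no filter, a filter at 0.5 RPKM, scaling by median of ratios, a replicate term, 1 fit of 24 libraries, DMSO of day 3 as the reference, and leaving out each library, where a library left alone is taken to vary like other groups.

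Named are BRCA1, RAD51AP1 and members called in at least 3 of 6 drug comparisons in the same direction, in the common effect with the same sign in 4 lines, or in the test between lines, and the 2 largest called changes in each comparison. Of each other list the 3 genes with the smallest adjusted p in the common effect are named. One gene that this rule picks is not reported here.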

Additional observations from a re-analysis of the deposited data

Results flagged for a closer look

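For 17 of the 30 genes the day 5 effect of EPZ015666 differed between the 4 cell lines by the F test of limma on 24 libraries, 56.7%, against 58.8% of all genes tested. The adjusted p was 7.55e-06 for FANCI, 1.26e-05 for NBN, 1.47e-05 for FANCL, 9.94e-05 for FANCG, 0.000189 for FANCD2, 0.000216 for BRIP1 and 0.000655 for UBE2T. It was 0.00145 for RAD54L, 0.00217 for MRE11, 0.00274 for BLM, 0.00297 for BRCA2, 0.00327 for FANCA and 0.00999 for RAD51AP1. It was 0.0345 for RAD51C, 0.0347 for FANCC, 0.038 for FANCF and 0.0437 for RBBP8.

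NBN, BRIP1 and UBE2T were called in opposite directions in different lines at day 5. NBN was at 1.18 times its DMSO level in BT549 and OVCAR8 and at 0.716 times in COV362, BRIP1 at 1.3 times in OVCAR8 and 0.704 times in COV362, and UBE2T at 0.708 times in OVCAR8 and 1.16 times in MDAMB436. FANCI and FANCG were lower in each of the 4 lines and differed in size. The calls of RAD51C, FANCC, FANCF and RBBP8 ended in 7 to 15 of 24 fits without 1 library, at up to adjusted p = 0.126 for RAD51C, 0.11 for FANCC, 0.171 for FANCF and 0.0912 for RBBP8, and the other 13 stood in all 24.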

How the results depend on the processing

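Median-of-ratios scaling and both pseudocounts kept the 79 calls of named genes, no filter lost 4 and limma-voom 1. In 1 fit of all 24 libraries 17 of the 30 genes were called at day 5 (40.6% of all genes) and 10 at day 3 (25.8%) in BT549, 14 in MDAMB436 (36.7%), 14 in the BT549 vehicle (22.1%), and 8 and 1 in the day differences of BT549 (13.1%) and OVCAR8 (4.96%). With limma-voom these were 13 at day 5 in BT549, 16 at day 3 in OVCAR8, 19 in COV362, 14 in MDAMB436, 13 in the BT549 vehicle, and 8 and 4 in the day differences. With a mean RPKM of at least 0.5, which leaves fewer genes, they were 3 of 18 in MDAMB436 (36.6% of all genes), 1 in the BT549 day difference (4%), 6 of 16 in the OVCAR8 vehicle (32.1%), and of 11 genes 6 in the common effect (70.9%), 7 between lines (72.2%) and 11 in DMSO level (97.8%). Without a filter 2 were called in the BT549 vehicle (4.98%).

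Without 1 library the counts ran from 0 to 11 (BT549 day 5), 1 to 5 (BT549 day 3), 8 to 12 (OVCAR8 day 5), 3 to 10 (OVCAR8 day 3), 1 to 6 (COV362), 0 to 0 (MDAMB436), 0 to 2 (BT549 vehicle), 4 to 11 (OVCAR8 vehicle), 15 to 17 (common), 13 to 17 (between lines) and 30 to 30 (DMSO level), and were 0 for both day differences. With DMSO of day 3 as the reference the log2 change was -0.046 for NBN and -0.071 for EXO1 in BT549, and -0.334 for BRIP1, -0.119 for EXO1 and -0.052 for FANCD2 in OVCAR8; the DMSO shift between days is built into that alternative.

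The replicate letters do not pair the libraries: deviations of A from B correlated at -0.059 to 0.042 between groups. With the letter as a replicate block the counts were 6 at day 3 in OVCAR8 (16.2% of all genes), 7 in COV362 (35.9%), 0 in MDAMB436 (0%) and 0 in the BT549 vehicle (1.78%), and 22 of the 79 calls of named genes were lost. XRCC3, at 25 to 175 reads per library, is the gene most limited by depth.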
